A study of Mus musculus with 6 samples.

Results

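The genes described are 10 regulators of mitochondrial biogenesis and oxidative metabolism, taken by name from a table of 13809 genes measured in mouse hearts at embryonic day (E) 18.5. They are the coactivators *Ppargc1a* and *Ppargc1b*, the estrogen-related receptors *Esrra*, *Esrrb* and *Esrrg*, the fatty acid receptors *Ppara* and *Ppard*, their partner *Rxra*, the nuclear respiratory factor *Nrf1* and the mitochondrial DNA factor *Tfam*. All 10 were found in the table, and all 10 passed the filter on low counts, with 254 to 6581 counts in each library. Total RNA depleted of ribosomal RNA was sequenced in 3 libraries from wild-type (WT) hearts and 3 from *Pkm1*-knockout (KO) hearts. The KO embryos were homozygous for a CRISPR/Cas9 deletion in the exon of *Pkm* that only the PKM1 isoform of pyruvate kinase uses, in every tissue, and the line was made in zygotes of C57BL/6J and DBA/2 hybrids. The study names the tissue as ventricle and the sample labels as heart, and whether a library came from 1 embryo or several is not given in the sources used here.

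PGC-1α and PGC-1β, the products of *Ppargc1a* and *Ppargc1b*, do not bind DNA themselves. They dock on nuclear receptors and on NRF1 and raise transcription of the genes for respiration and fatty acid oxidation. ERR receptors act without a known natural hormone. PPAR receptors are activated by fatty acids and bind DNA together with an RXR. NRF1 switches on nuclear genes of the respiratory chain and *Tfam*, whose product packages mitochondrial DNA and helps to start its transcription. Around birth this circuit drives heart muscle from glucose use towards oxidation of fatty acids.

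Library totals lay between 15567624 and 19875546 counts. Thus 3 counts, taken as the limit of detection for counting error only, stood for 0.151 to 0.193 CPM (counts scaled to the library total). The CPM levels of genes given here are also scaled between libraries with TMM factors. *Pkm*, the targeted gene, fell from 1318 ± 41.1 to 542 ± 10.1 CPM (SD, n = 3 each), with both isoforms counted together. All 4 Y-linked transcripts examined had 0 counts in every KO library and a mean of 39.1 to 93.5 CPM in WT, and *Xist* stood at 5.26 CPM in WT against 2285 in KO, so an effect of embryo sex cannot be told apart from one of genotype; none of the 10 regulators lies on X or Y. WT c differed more from WT a and WT b (chi-square per degree of freedom 3.76 and 3.24) than any other pair of libraries of a genotype did (1.56 to 1.88), and the calls of regulators and list counts that change by over 1.5 times without it are given with both values. The 10 genes listed as ventricular markers had a summed level of 113782 to 120890 CPM, of which *Ttn* alone held a mean of 78884 CPM in WT. This sum alone does not tell ventricle from other heart muscle. The brown fat and skeletal muscle genes *Ucp1*, *Myod1* and *Myog* had no row among the 13809 genes used here, and 6 others of that list were tested.

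Within the circuit, the 3 differences past the threshold ran in opposite directions. *Ppargc1a* was lower in KO hearts, *Ppara* and *Esrra* were higher, and the other 7 regulators were not called. A gene is called when the quasi-likelihood p of edgeR, after Benjamini-Hochberg adjustment over the 13804 genes tested, is under 0.05, and SE stands for the standard error of a fitted log2 fold change of KO against WT. The share called among the regulators, 3 of 10, is close to the 30.3% of all genes tested that were called (15.7% lower and 14.6% higher), so the number of calls does not set these genes apart. The median log2 fold change was 0.06 over the 10 regulators and 0.00172 over all genes tested. The WT and KO libraries did not overlap for 5 regulators, 1 lower and 4 higher in KO, where 42.4% of all genes tested did not overlap (21.4% lower and 21.0% higher).

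**Figure D1:**
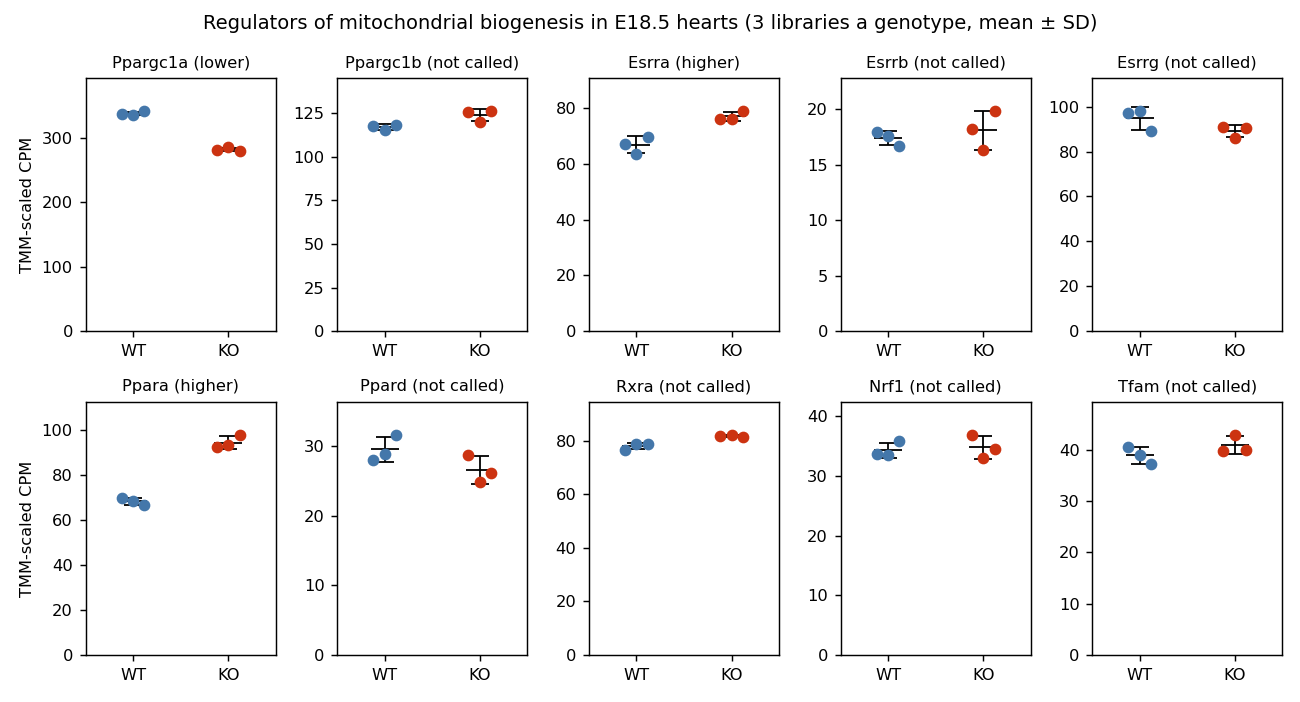
TMM-scaled CPM (y axis) of each of the 10 regulators in the 3 WT and 3 KO libraries (1 point a library, bars mean ± SD). *Ppargc1a* lies between 336 and 341 CPM in WT and between 280.3 and 285 CPM in KO, *Ppara* and *Esrra* lie higher in every KO library, and the *Esrrb*, *Nrf1* and *Tfam* points of the genotypes intermingle.

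*Ppargc1a*, the coactivator that responds to energy demand, cold and hormonal signals, was the only one of the 10 called lower. In GRCm38 its gene is chr5:51454250-51567726, read from the minus strand. WT a, b and c held 338, 336 and 341 CPM of *Ppargc1a*, against 281, 285 and 280.3 CPM in KO a, b and c. The genotypes were separated by a gap far wider than the spread within either, whose SD was 2.72 CPM in WT and 2.73 CPM in KO. From a mean of 338 CPM in WT to 282 in KO, *Ppargc1a* fell by 16.5%, a log2 fold change of -0.26 ± 0.0295 (SE; edgeR adjusted p = 1.23e-07). The 95% interval of the ratio of KO to WT ran from 0.800 to 0.870.

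The promoter of *Ppargc1a* is shown because this gene carried the decrease, and because CREB, which binds the core TGACG of the cAMP response element, is a textbook activator of it. In the RefSeq promoter windows of GRCm38.p6, from 250 bases before to 50 after a start site, TGACG or its reverse complement CGTCA occurred in 20.8% of 32851 windows. Its single match in the *Ppargc1a* window begins 49 bases before the start and is in capitals in the 250 bases before the start, chr5:51567726-51567975 on the minus strand.
Ppargc1a: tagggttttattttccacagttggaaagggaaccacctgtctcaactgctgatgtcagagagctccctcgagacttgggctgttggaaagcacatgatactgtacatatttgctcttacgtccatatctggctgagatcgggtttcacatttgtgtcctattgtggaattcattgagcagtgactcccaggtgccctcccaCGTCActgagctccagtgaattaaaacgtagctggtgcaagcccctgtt
No match to CCAAT, the letters bound by NFY, or to GGGCGG, the GC box bound by Sp factors, was found in this window on either strand. Those motifs occurred in 37.4% and 35.7% of all windows, and a match or its absence says nothing about binding in these hearts.

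*Ppargc1b*, the related coactivator, was not called, and its values were of the opposite sign. It lay at 115 to 118 CPM in the WT and at 120.2 to 126 CPM in the KO libraries, with no overlap. Its log2 fold change was 0.09 ± 0.0382 (SE), with an adjusted p of 0.0935 (edgeR) and a 95% interval of the ratio of KO to WT from 1.00 to 1.12. Inside each library, where no scaling enters, there were 2.87, 2.91 and 2.89 *Ppargc1a* counts per *Ppargc1b* count in WT a, b and c, and 2.24, 2.37 and 2.22 in KO a, b and c. The genotypes did not overlap in this ratio. An exact permutation test of 3 against 3 libraries gave p = 0.10 two-sided, the smallest p that this design allows, and 0.125 adjusted over the 5 ratios within families that were compared.

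*Ppara* encodes PPARα, the receptor that switches on fatty acid oxidation genes in heart and liver when fatty acids are plentiful. It showed the largest change of the 10. Its gene is chr15:85734983-85802819, on the plus strand. WT a, b and c held 69.8, 68.4 and 66.8 CPM of *Ppara*, against 92.3, 93.1 and 97.7 CPM in KO a, b and c. Every KO library was above every WT library by more than the spread of either genotype. The WT mean of 68.3 ± 1.51 CPM rose to 94.4 ± 2.89 in KO (SD, n = 3 each), 1.38 times as much in KO. The log2 fold change was 0.47 ± 0.0442 (SE; edgeR adjusted p = 5.13e-09), with a 95% interval of the ratio from 1.30 to 1.47.

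The start of *Ppara* is shown because it was the one window of the circuit that held the palindromic NRF1 motif, the half-site GCGCA followed directly by its reverse complement TGCGC. The motif occurred in 1 of the 15 windows of the 9 regulators that matched the promoter table, and in 0.971% of all windows. It is in capitals in the 30 bases from 41 to 12 bases before the start, chr15:85735735-85735764 on the plus strand. That start is the one of the RefSeq window and differs from the start of the gene interval given above, so the stretch lies inside that interval.
Ppara: gggctcggtgGCGCATGCGCgcggactagg
*Nrf1* itself, the gene for the factor that reads this motif, stood at 34.3 ± 1.28 CPM in WT against 34.8 ± 1.94 in KO (SD, n = 3 each).

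*Ppard*, the PPAR found in most tissues, had values of the opposite sign. It ranged from 28.0 to 31.5 CPM in WT and from 24.8 to 28.7 CPM in KO, and the genotypes overlapped. Its log2 fold change was -0.15 ± 0.0700 (SE), and it was not called (adjusted p = 0.113, edgeR), with a 95% interval of the ratio of KO to WT from 0.817 to 0.998. There were 2.33 ± 0.190 *Ppara* counts per *Ppard* count in WT and 3.58 ± 0.308 in KO libraries (SD, n = 3 each), without overlap (exact permutation test, p = 0.10 two-sided, 0.125 adjusted over 5 ratios). *Rxra*, the DNA-binding partner of both receptors, lay at 76.6 to 78.9 CPM in WT and at 81.6 to 82.2 CPM in KO. These ranges did not overlap, but the log2 fold change of 0.07 ± 0.0428 (SE) was not called (adjusted p = 0.245, edgeR), and the interval of the ratio ran from 0.986 to 1.11.

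*Esrra* encodes ERRα, the receptor most widely paired with PGC-1α at genes of the respiratory chain, and was the only ERR gene called. Its gene is chr19:6910977-6921813, on the minus strand. WT a, b and c held 67.1, 63.7 and 69.8 CPM of *Esrra*, against 76.1, 76.3 and 78.8 CPM in KO a, b and c. Every KO library was above every WT library. The WT mean of 66.9 ± 3.08 CPM rose to 77.1 ± 1.54 in KO (SD, n = 3 each), for a log2 fold change of 0.21 ± 0.0471 (SE; edgeR adjusted p = 0.00135). The interval of the ratio ran from 1.08 to 1.23. *Esrra* shares 73 exonic bases with *Trmt112* on the opposite strand, and since the strand setting of the authors' counting is not given in the sources used here, reads there cannot be told apart.

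The GC boxes before the *Esrra* start are shown as the Sp motif is the one the regulators held most often. It was in 8 of 15 windows and 7 of 9 genes, where 35.7% of all windows held it. Genes with several windows had more chances of a match. The capitals mark CCGCCC, the reverse complement of GGGCGG, at chr19:6922029-6922058 and chr19:6921948-6921977, read on the minus strand.
Esrra distal: aggcagagcaCCGCCCtccttcgtgatgca
Esrra proximal: taggttcaggccCCGCCCacaggaggccgc
The ERR motif TCAAGGTCA was found in 0 of the 15 windows on either strand and in 0.423% of all windows.

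*Esrrg* and *Esrrb*, the ERR genes with a narrower range of tissues, were not called. *Esrrg* ranged from 89.0 to 97.9 CPM in WT and from 85.9 to 91.0 CPM in KO, a log2 fold change of -0.09 ± 0.0450 (SE; edgeR adjusted p = 0.142). This value turned on 1 library: without WT c the log2 fold change of *Esrrg* was -0.13 and passed the threshold (adjusted p = 0.0114, edgeR), which raised the regulators called lower from 1 to 2. *Esrrb* ranged from 16.7 to 18.0 CPM in WT and from 16.3 to 19.8 CPM in KO, and its interval of the ratio, 0.925 to 1.17, held no change as well as changes of either sign. There were 0.708 ± 0.0689 *Esrra* counts per *Esrrg* count in WT and 0.865 ± 0.0263 in KO (SD, n = 3 each), without overlap (exact permutation test, p = 0.10 two-sided, 0.125 adjusted over 5 ratios). The *Esrrg* to *Esrrb* ratio also did not overlap (5.44 ± 0.114 in WT and 4.95 ± 0.349 in KO, SD, n = 3 each), and the *Esrra* to *Esrrb* ratio did overlap.

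**Figure D2:**
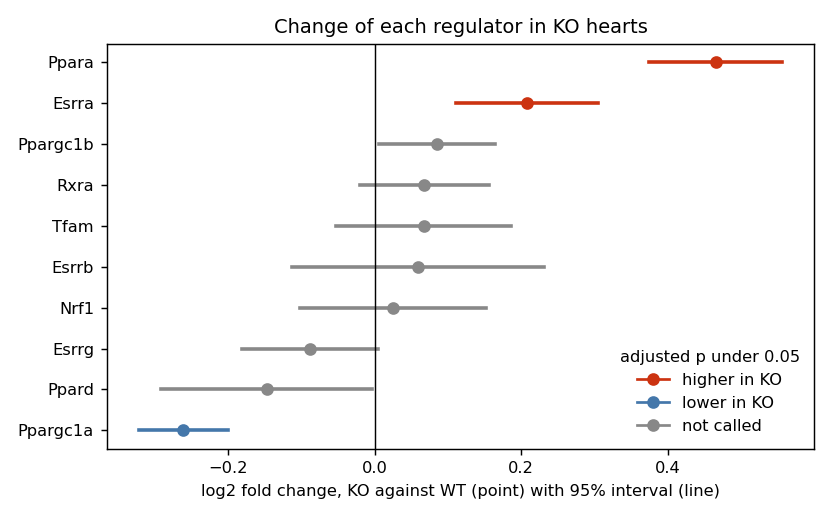
Log2 fold change of KO against WT (x axis, points) with its 95% interval (lines) for the 10 regulators (y axis), ordered by size. *Ppara* at 0.47 and *Esrra* at 0.21 are called higher and *Ppargc1a* at -0.26 is called lower, and the others lie between -0.15 and 0.09.

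*Nrf1* and *Tfam*, the step from the nuclear circuit to mitochondrial DNA, showed no difference beyond the spread of the libraries. *Tfam* stood at 38.9 ± 1.68 CPM in WT against 40.8 ± 1.74 in KO (SD, n = 3 each), for a log2 fold change of 0.07 ± 0.0580 (SE; edgeR adjusted p = 0.414). Its interval of the ratio, 0.964 to 1.14, leaves room for an increase of the size seen for *Rxra* or *Ppargc1b*, but not for that of *Ppara*. *Nrf1* had a log2 fold change of 0.03 ± 0.0616 (SE; edgeR adjusted p = 0.794), with an interval of the ratio from 0.932 to 1.11.

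**Figure D3:**
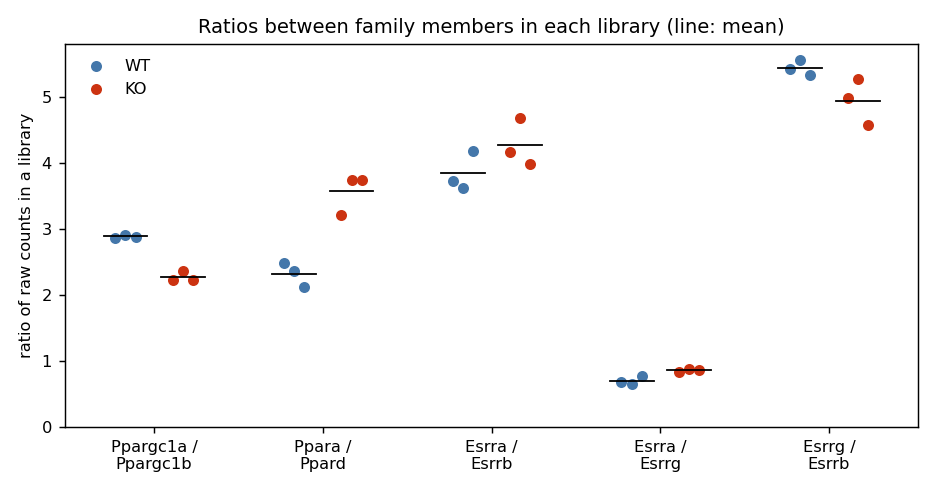
Ratio of raw counts (y axis) between 2 members of a family in each library, for 5 pairs (x axis), with WT in blue, KO in red and lines at the means. Fewer *Ppargc1a* counts per *Ppargc1b* count (2.28 against 2.89) and more *Ppara* counts per *Ppard* count (3.58 against 2.33) were found in KO libraries.

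Per length of exon, the coactivators were the most abundant regulators in both genotypes. In WT hearts the level was 51.3 ± 0.413 CPM per kb for *Ppargc1a*, 29.3 ± 0.383 for *Ppargc1b* and 17.8 ± 0.395 for *Ppara* (SD, n = 3 each). *Esrrg*, *Esrra* and *Rxra* followed at 15.3, 15.2 and 14.3 CPM per kb, and *Esrrg* overlapped with both of the others. *Tfam* stood at 8.76 CPM per kb, and *Ppard*, *Nrf1* and *Esrrb* came last at 3.92, 3.34 and 2.88. In KO hearts the order changed in the middle, where *Esrra* (17.6 CPM per kb) lay above *Rxra* (15.0) and *Esrrg* (14.4) without overlap, and *Nrf1* overlapped with both *Ppard* and *Esrrb*, while *Ppard* still lay above *Esrrb*. Among the 13294 genes with an annotated length, *Ppargc1a* was at the 95.1 percentile of WT levels per kb and *Esrrb* at the 33.9 percentile. Exonic lengths join all annotated transcripts of a gene, so genes with long rare exons, such as *Nrf1* with 10282 bases, may be underestimated.

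**Figure D4:**
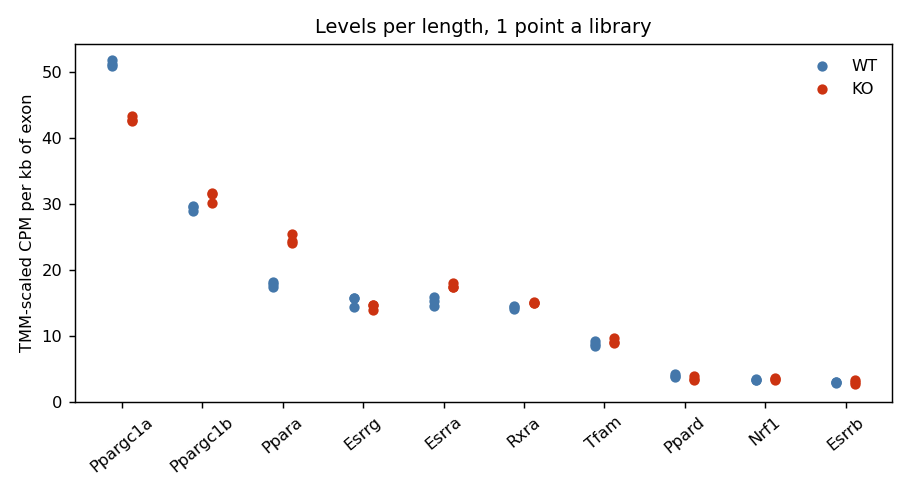
TMM-scaled CPM per kb of exon (y axis) of the 10 regulators (x axis), 1 point a library, WT in blue and KO in red. *Ppargc1a* falls from 51.3 to 42.8 CPM per kb and stays the highest in both genotypes, while *Ppara* rises from 17.8 to 24.6 CPM per kb.

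*Ppara* had the smallest p of the 10, and its pattern was compared with that of 13498 genes whose mean reached 1 CPM. The 3 genes most like it over the 6 libraries were *Ldha*, *Arhgap44* and *Pfkl*, with Pearson correlations of log2 CPM of 0.999, 0.998 and 0.998. With 6 libraries in 2 groups such values are common, and 558 genes were above 0.95. *Ldha* and *Pfkl* encode the glycolytic enzymes lactate dehydrogenase A and liver-type phosphofructokinase, and had log2 fold changes of 0.17 and 0.34. *Arhgap44* had a log2 fold change of 0.12 and was not called (adjusted p = 0.0783, edgeR).

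The genes that work beside the regulators were described by a list of 27 cofactors, corepressors and partner receptors, all tested. In it 6 were lower and 3 higher in KO, 33.3% of the list against 30.3% of all genes, and the median log2 fold change was -0.03. Without WT c, 7 were lower and 4 higher. *Mef2a*, a muscle transcription factor that acts on *Ppargc1a*, fell from 517 ± 8.88 to 466 ± 4.74 CPM, *Sirt1*, the deacetylase of PGC-1α, from 31.4 ± 1.23 to 26.2 ± 1.18 CPM and *Ncoa2*, a nuclear receptor coactivator, from 146 ± 2.46 to 133 ± 2.93 CPM (SD, n = 3 each). Their log2 fold changes were -0.15, -0.26 and -0.13. Higher in KO were *Gabpb2*, a subunit of the NRF2 (GABP) factor, *Creb1*, the cAMP-responsive factor, and *Foxo1*, with log2 fold changes of 0.26, 0.25 and 0.25. Among partners that were not called, *Perm1*, a muscle factor induced by PGC-1 and ERR, stood at 112 ± 2.84 CPM in WT against 109 ± 1.75 in KO, and *Gabpa*, the DNA-binding subunit of GABP, at 95.4 ± 2.59 and 90.7 ± 2.27 CPM (SD, n = 3 each). *Pprc1*, the third coactivator of the PGC-1 family, had a log2 fold change of 0.11 (adjusted p = 0.155, edgeR). Of the other receptors of the PPAR and RXR families none was called, with *Rxrb* at 31.2 ± 1.01 CPM, *Pparg* at 6.12 ± 0.490 CPM and *Rxrg* at 0.879 ± 0.263 CPM in WT (SD, n = 3 each).

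Beside *Tfam*, a list of 22 nuclear genes linked to mitochondrial DNA and its transcripts was tested, of which 4 (18.2%) were higher in KO and the other 18 were not called. Without *Ppif*, whose product does not act on mitochondrial DNA, 3 of 21 (14.3%) were higher, where 14.6% of all genes were. The median log2 fold change was 0.11, with 19 of the 22 above 0. *Polrmt*, the mitochondrial RNA polymerase, rose from 29.9 ± 2.34 to 35.2 ± 2.03 CPM and *Mterf3*, a repressor of mitochondrial transcription, from 16.5 ± 1.60 to 19.6 ± 0.421 CPM (SD, n = 3 each). *Mgme1*, an exonuclease of mitochondrial DNA, passed narrowly (log2 fold change 0.22, adjusted p = 0.0489, edgeR). The fourth, *Ppif* (0.23), encodes cyclophilin D, which regulates the permeability pore, and 18.3% of its exonic bases are shared with an antisense gene. *Tfb1m* and *Tfb2m*, which methylate ribosomal RNA and start transcription in mitochondria, had log2 fold changes of -0.01 and 0.02 and were not called. Of the 22, the number called higher was 2 under DESeq2 and also without WT a, KO a or KO c, and 5 under the exact and likelihood ratio tests of edgeR.

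Among genes that PPARs activate in heart, more were called lower than higher, while *Ppara* itself was higher. Of 26 tested, 12 (46.2%) were lower and 2 higher in KO, where 15.7% and 14.6% of all genes were, and the median log2 fold change was -0.12. The median WT level was 67.5 CPM in this list and 22.6 CPM over all genes tested. Among the 1909 genes at 100 CPM or more in WT, 35.8% were lower and 9.85% higher. The part of abundance in the PPAR counts was not tested. Without WT c, 13 were lower. *Pdk4* encodes a kinase that inhibits pyruvate dehydrogenase. It was at 68.6, 71.1 and 60.9 CPM in WT a, b and c and at 44.7, 46.7 and 44.9 CPM in KO a, b and c. Its log2 fold change was -0.56 ± 0.0562 (SE). *Ucp2*, a carrier of the inner membrane, fell from 36.1 ± 1.82 to 24.6 ± 1.30 CPM and *Fabp3*, the fatty acid binding protein of heart, from 808 ± 92.8 to 652 ± 10.2 CPM (SD, n = 3 each). The exceptions were *Angptl4*, an inhibitor of lipoprotein lipase, which rose from 3.34 ± 0.160 to 6.49 ± 0.0782 CPM, and *Cpt1a*, the carnitine palmitoyltransferase of fetal heart and liver, which rose from 95.2 ± 3.15 to 105 ± 2.09 CPM (SD, n = 3 each). *Cpt1b*, the muscle form, stood at 4.28 ± 0.454 CPM in WT against 4.01 ± 0.387 in KO (SD, n = 3 each). Its level is uncertain, since 81.4% of its exonic bases are shared with *Gm44502* on the same strand and the authors' counting could have split or dropped these reads.

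Among the targets of ERRs and PGC-1 in oxidative metabolism, 18 of 26 tested (69.2%) were lower and 1 was higher in KO, against 15.7% lower and 14.6% higher over all genes, with a median log2 fold change of -0.12. *Ckmt2*, the mitochondrial creatine kinase of muscle, was at 183, 184 and 179.6 CPM in WT a, b and c and at 118, 119 and 112 CPM in KO a, b and c, a log2 fold change of -0.65 ± 0.0369 (SE; edgeR adjusted p = 1.43e-13). *Mb*, which encodes myoglobin, fell from 1379 ± 89.0 to 981 ± 11.9 CPM and *Slc25a4*, the ADP/ATP carrier of heart, from 2085 ± 50.5 to 1806 ± 23.0 CPM (SD, n = 3 each). *Mb* shares 27.6% of its exonic bases with an antisense gene. The 1 higher gene was *Vegfa*, which encodes a growth factor for blood vessels, with a log2 fold change of 0.56 ± 0.0285 (SE). Without WT c, 21 of these targets were lower and 2 higher.

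The ERR and PGC-1 targets were also abundant genes. Of these 26, 25 were at 100 CPM or more in WT, and among all 1909 genes at that level 35.8% were lower and 9.85% higher in KO, with a median log2 fold change of -0.06. Ventricular muscle markers moved too, but not all in 1 direction. Of the 10, 7 were lower and 2 were higher, *Myh7* (log2 fold change 0.05) and *Hey2* (0.33), and *Irx4* (0.06) was not called. The median log2 fold change of the 10 was -0.14, and their summed level was 117698 to 120890 CPM in WT and 113782 to 114964 CPM in KO. In bulk tissue, fewer muscle cells and less RNA of these genes per cell cannot be told apart. Of the 8 atrial markers tested, 4 were higher, and the sum of the 8 was 629.8 to 638 CPM in the WT and 1049 to 1072 CPM in the KO libraries. The largest values in that sum were of *Nppa* (a mean of 372 CPM in WT and 597 in KO) and *Myl4* (142 and 305). *Nr2f1*, *Nr2f2*, *Stard10* and *Bmp10* were not called, with log2 fold changes of -0.23, 0.06, -0.09 and 0.02. Of 7 epicardial markers 3 were higher, of 8 fibroblast markers 4 were lower, of 9 endothelial markers 3 were lower and 1 higher, of 7 smooth muscle and pericyte markers 2 were lower and 1 higher, of 8 immune markers 1 was lower, of 3 erythroid markers 1 was lower and 1 higher, and of 6 brown fat and skeletal muscle markers 2 were lower and 2 higher. All 16 immediate early genes examined, which respond within an hour to stimulation or handling, were lower in KO, with summed levels of 1171 to 1259 CPM in WT and 313 to 317 CPM in KO. The ribosomal precursor *Rn45s*, which depletion should remove, took 2.21 to 2.48% of counts in WT and 2.70 to 2.79% in KO libraries, a log2 fold change of 0.20 ± 0.0282 (SE; edgeR adjusted p = 3.12e-06), and the 3 called regulators kept their calls with scaling factors set without it. The part of cell composition, of ribosomal RNA, of the early genes and of sex in the values of the regulators was not tested.

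**Figure D5:**
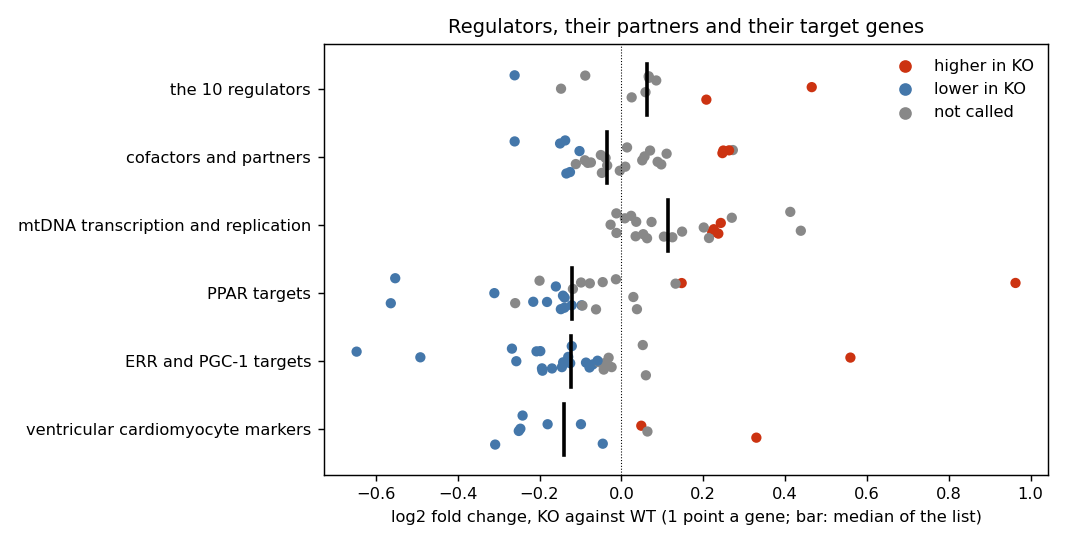
Log2 fold change of KO against WT (x axis) for each tested gene of 6 lists (y axis), coloured by call, with a black bar at the median of the list. The PPAR and the ERR and PGC-1 targets lie mostly below 0 (both medians -0.12), the list linked to mitochondrial DNA mostly above (0.11), and the 10 regulators on both sides.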

How the data were processed

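Ribosome-depleted total RNA of hearts (ventricles, per the study) at E18.5 was sequenced with paired ends in 3 WT and 3 KO libraries. The study used HISAT2 for alignment and StringTie for transcripts. The submitters' processing notes also name cutadapt 1.18 and mm10. The program that counted reads is not given in the sources used here. The deposited file gives unnormalized read counts for each gene symbol, with 1 column a library. The columns name the genotype without a replicate number, so libraries are called a to c in column order. The authors also deposited their own comparison (log2 fold change, mean log2 CPM, p-value and its adjusted form), which was not used.

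Counts were filtered with filterByExpr (13804 of 13809 genes kept), scaled with TMM and tested with edgeR 4.0.16's quasi-likelihood test in R 4.3.3, with genotype as the only term. P-values rest on the spread between 3 libraries a genotype, with the estimate for each gene moderated by that of all genes tested. Standard errors are the absolute log2 fold change divided by the square root of the F statistic. The test was checked on simulated counts. Coordinates and exonic lengths are from GENCODE M21 (GRCm38, the same build as mm10). Promoters are from RefSeq (GRCm38.p6), for 9 of the 10 regulators, since windows on chromosome 18, where *Ppargc1b* lies, were left out. Figures were drawn with matplotlib 3.10.9. Genes named from a list were the 3 with the smallest adjusted p in each direction and 11 fixed partners and targets, with list exceptions and genes that bound a result added after their values were seen. The members and lists were chosen with earlier results of these data known. Alternatives were RLE factors, TMM without *Rn45s*, no filter, at least 10 counts in every library, the exact and likelihood ratio tests of edgeR, DESeq2 1.42.0, voom in limma 3.58.1, X and Y genes left out, and each library left out.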

Additional observations from a re-analysis of the deposited data

How the results depend on the processing

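No paired analysis was possible, because the sources used here do not pair WT with KO libraries and no count column names its replicate. Summing WT a and WT b was not run, since their counts differed by more than sampling noise. *Ppargc1a*, *Ppara* and *Esrra* kept their direction and call in the 9 other settings and the 6 fits without 1 library, with log2 fold changes of -0.27 to -0.26, 0.44 to 0.48 and 0.17 to 0.24. Regulators called lower numbered 1 in the other settings and 1 to 2 over the fits without 1 library (2 where WT c was dropped and *Esrrg* passed); 2 were called higher throughout. The direction of uncalled genes reversed for *Nrf1* without KO a (log2 fold change -0.0191) and for *Esrrb* without KO c (-0.0106), with ranges of -0.0191 to 0.0596 and -0.0106 to 0.125 over the 6 fits. Nuclear genes linked to mitochondrial DNA and called higher, 4 in the report, numbered 2 with DESeq2, 3 with voom, 5 with the likelihood ratio and exact tests of edgeR, and 2 to 4 with 1 library left out. ERR and PGC-1 targets called higher numbered 1 to 2 and lower 15 to 21, PPAR targets lower 10 to 13, and cofactors and partners lower 4 to 7, with 1 library left out. All genes called numbered 1639 to 2306 lower and 1362 to 2199 higher over all settings. The cause was not tested.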
